A study of Homo sapiens with 4 samples.

Results

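The genes described here are 8 neighbours on chromosome band 4q12, namely SCFD2, FIP1L1, LNX1, CHIC2, GSX2, PDGFRA, KIT and KDR, out of 20037 protein-coding genes in the RefSeq table for GRCh38.p14. Binding of the ETS-family transcription factor SPIB was mapped by ChIP-seq, which counts sequenced tags from DNA pulled down with a protein, in H1703 cells, an established line of human lung squamous cell carcinoma. All libraries came from cells that overexpressed SPIB, and the pull-down used the anti-FLAG M2 antibody. The groups were suspended cells (1 ChIP and 1 input library) and attached cells (1 ChIP and 1 input library), where an input is sonicated DNA without antibody. The treatment note in the labels gives 24 h of suspension for every library, so the condition label was used to tell the groups apart. A peak was assigned to a gene where its summit lay in the gene span or within 5 kb of it, and this gave 12 peaks out of 9024 in suspended cells and 0 of 462 in attached cells.

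Several genes of this band are known in cancer. PDGFRA encodes platelet-derived growth factor receptor alpha, KIT the receptor for stem cell factor, and KDR the main receptor of endothelial cells for vascular endothelial growth factor. All are receptor tyrosine kinases, which pair up on binding their ligand, phosphorylate each other and recruit adaptors such as GRB2. The region is amplified in some lung squamous carcinomas and gliomas, and H1703 is known as a line with extra copies of PDGFRA. FIP1L1 encodes a subunit of the machinery that cleaves and polyadenylates messenger RNA, and a deletion that removes CHIC2 joins it to PDGFRA in a form of eosinophilic leukaemia. LNX1 encodes a ubiquitin ligase of the Notch regulator NUMB, SCFD2 a Sec1-family protein, and GSX2 a homeobox factor of the embryonic forebrain. SPIB, like other ETS factors, binds DNA around a GGAA core.

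The suspended ChIP library held 20766909 tags after filtering and the attached one 21108364. Their inputs held 21437074 and 15878452 tags. With 1 library per group there was no replicate check, no p-value between conditions is given, and Poisson intervals cover counting error only. Among the 462 attached peaks, 305 (66.0%) had a false discovery rate (FDR) of 100% by the authors' caller, whereas no suspended peak was above 6.42%. A site without an attached peak is therefore not shown to be unbound.

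Of the listed starts of the 8 genes, 3 had their whole promoter window inside a suspended peak, 1 of SCFD2 and both of PDGFRA. The share of all promoter windows inside a suspended peak is not given here, so this count only describes these genes. The 3 windows are shown because they lie under the peaks described below, and that of KIT because it is the start of a neighbouring receptor gene with no peak. Each sequence is the 250 bases before the start, 5′ to 3′ on the strand of the gene, from RefSeq on GRCh38.p14. Capitals mark GGAA or its reverse complement TTCC.
SCFD2, chr4:53366062-53366311, minus strand: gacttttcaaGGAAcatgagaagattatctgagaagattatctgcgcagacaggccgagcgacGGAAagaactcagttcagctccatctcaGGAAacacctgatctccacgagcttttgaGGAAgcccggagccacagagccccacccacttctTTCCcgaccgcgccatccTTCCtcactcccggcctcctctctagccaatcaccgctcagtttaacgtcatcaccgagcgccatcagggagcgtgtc
PDGFRA first start, chr4:54229043-54229292, plus strand: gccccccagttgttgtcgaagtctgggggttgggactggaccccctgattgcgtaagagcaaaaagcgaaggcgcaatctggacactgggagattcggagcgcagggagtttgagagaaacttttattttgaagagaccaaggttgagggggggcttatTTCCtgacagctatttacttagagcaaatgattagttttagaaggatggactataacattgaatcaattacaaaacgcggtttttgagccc
PDGFRA second start, chr4:54233710-54233959, plus strand: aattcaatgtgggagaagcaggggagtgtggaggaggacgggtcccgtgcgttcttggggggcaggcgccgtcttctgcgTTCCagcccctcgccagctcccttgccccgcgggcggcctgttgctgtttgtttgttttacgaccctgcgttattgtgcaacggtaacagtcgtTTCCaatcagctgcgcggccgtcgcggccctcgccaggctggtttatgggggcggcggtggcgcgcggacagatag
KIT, chr4:54657707-54657956, plus strand: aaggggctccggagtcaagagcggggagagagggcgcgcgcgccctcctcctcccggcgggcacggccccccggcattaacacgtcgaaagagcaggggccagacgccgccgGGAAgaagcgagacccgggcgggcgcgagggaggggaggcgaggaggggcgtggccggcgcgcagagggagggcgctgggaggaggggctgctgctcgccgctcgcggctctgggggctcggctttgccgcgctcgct

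In the 250 bases shown, the ETS core occurred 6 times at SCFD2, once in the window of the first PDGFRA start, 2 times in that of the second, and once at KIT. Over the full windows, which run 50 bases past the start, GGAA on either strand was found at all 9 listed starts of the 8 genes, but also in 95.5% of 35116 promoter windows of the table. The longer string GAGGAAGT, on either strand, was in none of the 9 windows and in 2.59% of all windows. Its first 6 letters, GAGGAA, were in 4 of the 9 (SCFD2, FIP1L1, LNX1 and CHIC2) and in 27.9% of all windows. GAGGAAGT and GAGGAA both hold the core, so these matches overlap, and they describe letters and not binding sites.

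In suspended cells 6 of the 8 genes had a peak (75%), where 28.6% of all protein-coding genes did. PDGFRA had 6 peaks, SCFD2 had 2, and FIP1L1, LNX1, CHIC2 and KDR had 1 each. KIT and GSX2 had none. In attached cells none of the 8 had a peak, where the background was 1.86% of protein-coding genes. All but GSX2 are long genes. Of these 7, 6 (85.7%) had a suspended peak and 0 an attached one, where among the 6578 protein-coding genes at least as long as KDR 38.0% had a suspended peak and 2.74% an attached one. With peaks at an FDR of at most 5% only, 5 of the 8 genes had a suspended peak (all but CHIC2 of the 6; background 24.2%) and 0 an attached one (background 0.105%). With peaks at or above the median score of their list, FIP1L1, LNX1 and PDGFRA had a suspended peak (background 18.0%) and none an attached one (background 0.988%).

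**Figure D1:**
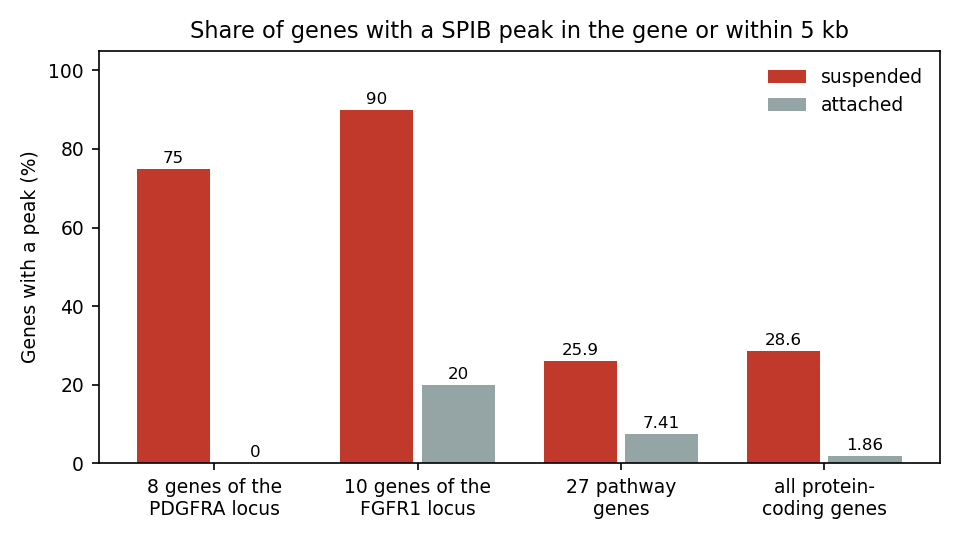
Share of genes (%, y axis) with a SPIB peak in the gene or within 5 kb, in suspended (left bar of each pair) and attached cells (right bar), for the 8 genes of the PDGFRA locus, 10 genes of the FGFR1 locus, 27 pathway genes and all protein-coding genes; each bar rests on 1 library. The PDGFRA locus stood at 75% in suspended and 0% in attached cells, against 28.6% and 1.86% of all protein-coding genes.

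The 12 peaks at the 8 genes held 693 tags, and the 6 at PDGFRA held 572 of them (82.5%). The window from the far end of SCFD2 to the start of KDR, chromosome 4 from 52872982 to 55125595, spans 2.25 Mb and held 17 suspended peaks, 5 of them at none of the 8 genes. That is 7.55 peaks per Mb (Poisson 95% interval 4.40 to 12.1), against 1.54 (1.36 to 1.72) over chromosome 4 and 2.91 (2.85 to 2.97) over all chromosomes. Without 5 kb either side of the first PDGFRA start, which leaves 12 peaks, the rate was 5.35 per Mb (2.76 to 9.35). The window held no attached peak, which allows up to 1.33 per Mb by the limit of 3 counts (1.64 by the exact Poisson 95% interval). Both limits lie above the 0.147 per Mb of the whole attached list. At this depth the empty window cannot be told apart from the rest of the attached list. The nearest attached peaks on chromosome 4 lay 1766 kb below SCFD2 in coordinate (23 tags, FDR 82.6%) and 10447 kb above KDR (8 tags, FDR 100%).

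**Figure D2:**
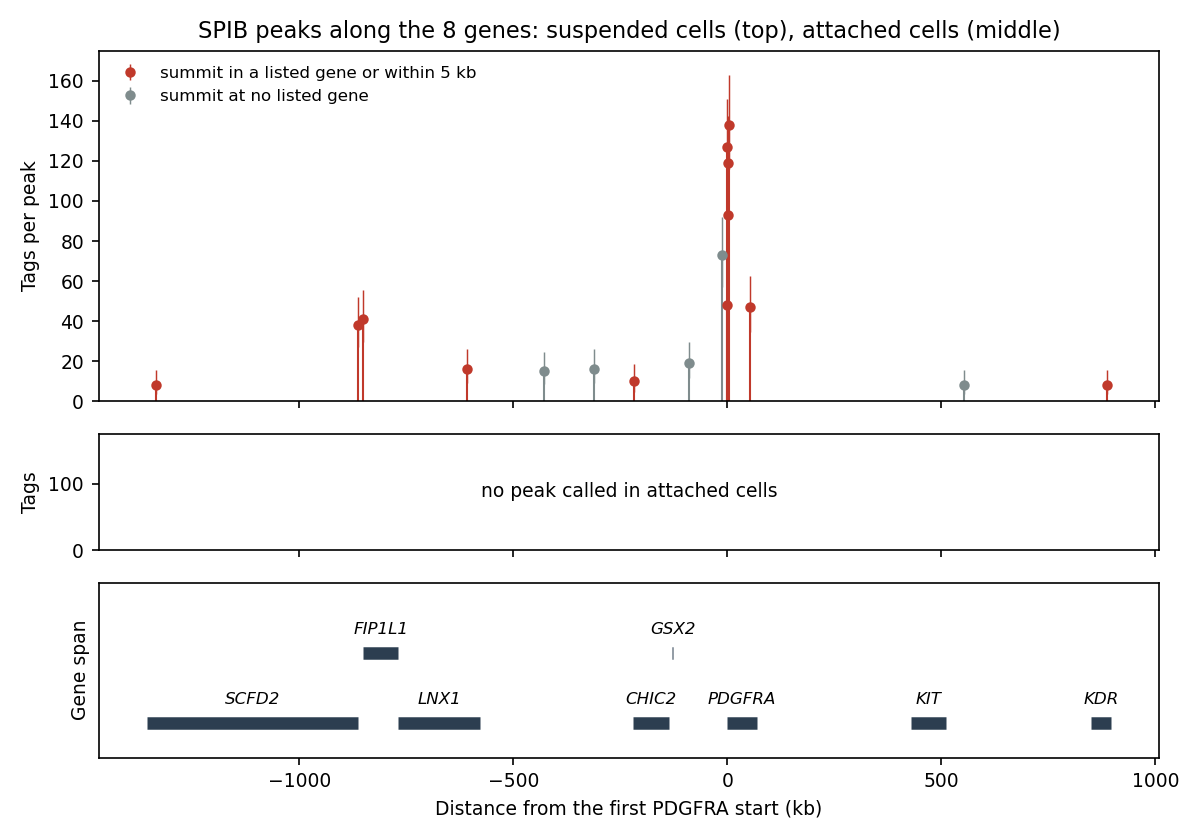
Tags per peak (y axis) along the 8 genes in suspended (top) and attached cells (middle), with the gene spans below, against the distance from the first PDGFRA start in kb; bars are Poisson 95% intervals. The tallest suspended peaks, with 93 to 138 tags, stand together at the start of PDGFRA, and no attached peak was called anywhere in the window.

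At PDGFRA, 5 of the 6 peaks formed a chain over the start of the gene. The PDGFRA span runs from 54229293 to 54298245 on the plus strand, and the table lists starts at 54229293 and, 4667 bp further on, at 54233960. The first peak of the chain, at 54226760 to 54228416, was 1657 bp wide with 127 tags (105.9 to 151.1), and its summit lay 1214 bp before the first start. The second, at 54228847 to 54229412, held 48 tags (35.4 to 63.6) in 566 bp and covered the first start, with its summit 260 bp before it. The third, at 54229841 to 54230878, held 93 tags (75.1 to 113.9) in 1038 bp, 1193 bp after the first start.

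The last peaks of the chain lay between the starts and over the second one. The fourth, at 54231089 to 54232661, held 119 tags (98.6 to 142.4) in 1573 bp, 2114 bp after the first start. The fifth, at 54232808 to 54234286, held 138 tags (115.9 to 163.0) in 1479 bp, covered the second start and had its summit 807 bp before it. Per kb of peak the chain was even, at 76.6, 84.8, 89.6, 75.7 and 93.3 tags in order of position. The sixth PDGFRA peak stood apart, 53987 bp after the first start at 54282827 to 54283456, with 47 tags (34.5 to 62.5) in 630 bp.

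Gaps of 430, 428, 210 and 146 bp separated the peaks of the chain, which covered 83.9% of the 7527 bp from its first to its last base and held 525 tags. When suspended summits at most 2 kb apart were joined, a procedure chosen after the chain was seen, 94.3% of the 8448 resulting groups held a single peak and 6 held at least 4. The PDGFRA chain was the only group of 5, and 1 group held more tags. Outside the 5 kb limit, the peak next to the chain lay 11436 bp before the first start, at 54217439 to 54218260, with 73 tags (57.2 to 91.8) in 822 bp. Its tag density of 88.8 per kb lay within the range of the chain.

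**Figure D3:**
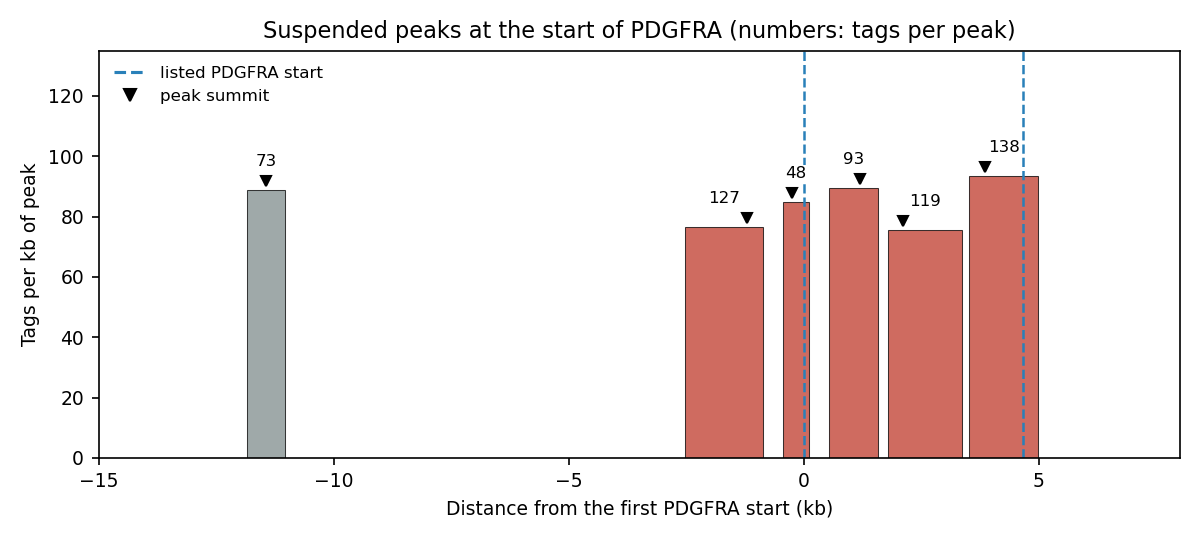
Tags per kb of peak (bar height) at the start of PDGFRA in suspended cells, with each bar as wide as its peak, against the distance from the first PDGFRA start in kb; triangles are summits, dashed lines the listed starts, numbers the tags per peak, and the grey bar the peak assigned to none of the 8 genes. The 5 red bars reach 75.7 to 93.3 tags per kb and leave gaps of at most 430 bp.

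Few genes of the series had as many peaks or as many raw tags as PDGFRA in suspended cells. By number of peaks, 10 of the 20037 protein-coding genes had more than 6, and by summed tags 5 genes had more than 572. NSD3 and LETM2 of the FGFR1 locus were among those 5, and both count the same peaks of 321 and 199 tags. Among the other genes of the locus, tags ranged from 46 at SCFD2 and 41 at FIP1L1 to 16 at LNX1, 10 at CHIC2 and 8 at KDR, and 1077, 1303, 3673, 4746 and 5356 genes, in that order, had more. Of the 211 suspended peaks at least 1 kb wide, 6 lay on chromosome 4, and 4 of these were in the PDGFRA chain. Several peaks of the FGFR1 locus were also that wide, up to 3425 bp at TACC1.

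**Figure D4:**
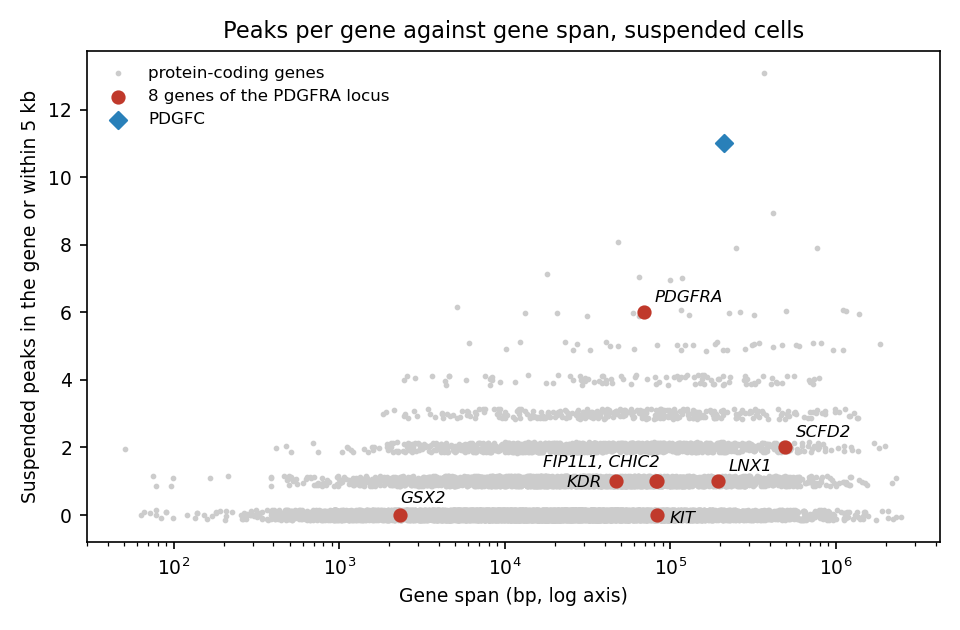
Number of suspended peaks per protein-coding gene (y axis, points spread slightly in height) against gene span in bp (log axis); the 8 genes of the PDGFRA locus are red and PDGFC, a ligand gene of the same receptor system, is blue. PDGFRA has 6 peaks in 68953 bp and PDGFC 11 in 211346 bp, while the other 7 red points have 0 to 2.

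The authors' caller ranked the PDGFRA peaks differently by score (minus 10 times log10 of its p-value) and by fold over local background. The fifth peak of the chain had a score of 193.5, at percentile 99.1 of the suspended list, an FDR of 0% and a fold of 4.52, at percentile 3.32 of that list. The fourth, slightly wider and with 119 tags against 138, scored 72.2, with a fold of 3.88 and an FDR of 1.73%. The remaining PDGFRA peaks scored between 61.6 and 113.1, with folds of 4.01 to 5.85 and an FDR of at most 3.05%. All 6 folds lay below the median of the suspended list, which was 9.10. Among the 79 suspended peaks that scored at least 193.5, 50 (63.3%) overlapped an attached peak, but the PDGFRA one did not. Of the 211 suspended peaks at least 1 kb wide, to which 4 of the chain belong, 14 (6.64%) overlapped an attached peak, and of all 9024 suspended peaks 212 (2.35%) did.

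The low folds at PDGFRA went with a high background in the input. For each suspended peak, the mean at which a Poisson count would exceed the deposited tags with exactly the authors' p-value was solved for. This implied background, once the scaling of 0.969 between the libraries was undone, came to a whole number of input tags in the peak, in 1 kb or in 10 kb, or to the genome-wide rate, for 95.2% of suspended peaks. The tolerances were 0.01 tags, 0.02 tags for 10 kb and 1% for the genome-wide rate. The genome-wide rate, which is the suspended ChIP tags over the effective genome of 3.25 Gb, was 6.39 tags per kb. This reading of the background was found after the values were seen. Because the caller takes the largest of these rates, the implied value is the highest of the local input densities it looked at.

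At the 6 PDGFRA peaks the implied background was 5.29 to 7.43 times the genome-wide rate. The first peak of the chain drew on 49 input tags in 1 kb (Poisson 95% interval 36.3 to 64.8), and the third on 42 in 1 kb (30.3 to 56.8). Within the peaks themselves the input held 23 tags (14.6 to 34.5) in the second, 73 (57.2 to 91.8) in the fourth, 59 (44.9 to 76.1) in the fifth and 22 (13.8 to 33.3) in the sixth. ChIP tags over implied background came to 1.61, 2.15, 2.20, 1.68, 2.41 and 2.21 in order of position, where the median of all suspended peaks was 4.62 and that of peaks at least 1 kb wide 2.04. The high tag counts at PDGFRA thus went with high input counts at the same place.

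Wide peaks across the suspended list also had a high implied background. Against peaks within 10% of their own width, the 6 PDGFRA peaks had 1.19, 1.78, 1.32, 1.14, 0.969 and 1.43 times the median implied background, in order of position. Their tags stood at percentiles 58.9, 93.9, 87.5, 28.8, 90.2 and 82.5 of those peaks. DNA copies at PDGFRA were not measured here, and their part in the tags and in the background was not tested.

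**Figure D5:**
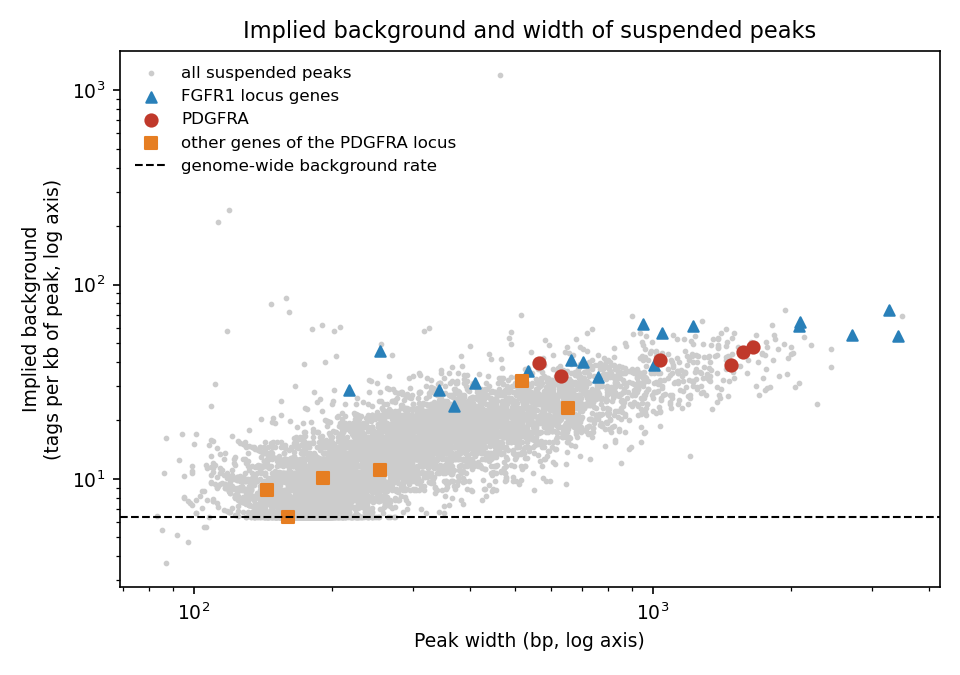
Implied background (tags per kb of peak, log axis) against peak width (bp, log axis) for all suspended peaks, with peaks of PDGFRA, of the other genes of the PDGFRA locus and of the FGFR1 locus marked; the dashed line is the genome-wide rate of 6.39 tags per kb. The PDGFRA points lie at 33.8 to 47.5 tags per kb, and the KDR point lies on the line.

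Relative to the genome-wide rate, the implied background was lower at most peaks further from PDGFRA. It was 6.64 times the genome-wide rate at the peak 11436 bp before PDGFRA and 2.43 times at the peak 37608 bp after GSX2. At KDR it equalled the genome-wide rate (1.0 times), and at the peak 42331 bp after KIT it was 1.06 times that rate. The background at LNX1, 1.74 times the rate, rested on 115 input tags in 10 kb (94.9 to 138.0), and that at CHIC2, 1.59 times, on 2 input tags in the peak. At the starts of SCFD2 and FIP1L1 it was higher, at 5.0 and 3.64 times. The 6 peaks at the other members were also narrower, with a median width of 223 bp against 1258.5 bp at PDGFRA. Against peaks within 10% of their own width, their implied background was 0.803 to 1.55 times the median, against 0.969 to 1.78 at PDGFRA. By the same measure the 5 window peaks at none of the 8 genes stood at 0.896 to 1.58. The highest of these, at 53917055 to 53917290, had 2.88 times the genome-wide rate, and the peak before PDGFRA stood at 1.52.

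SCFD2 and FIP1L1 had peaks at their starts, and at SCFD2 the start peak held more tags than the other but had a lower fold. SCFD2 lies at 52872982 to 53366061 on the minus strand, and its start peak, at 53365807 to 53366324, held 38 tags (26.9 to 52.2) in 518 bp with the summit 60 bp before the start. The fold was 4.47 and the FDR 4.12%. The other SCFD2 peak, at 52893562 to 52893705, held 8 tags (3.45 to 15.8) with a fold of 10.9 and an FDR of 5.69%. It lay 472444 bp after the start, 20635 bp from the far end. FIP1L1 lies at 53377641 to 53460862 on the plus strand. Its peak, at 53377718 to 53378369, held 41 tags (29.4 to 55.6) in 652 bp with a fold of 6.14 and an FDR of 0.94%. The summit was 356 bp after the start and also within 5 kb of the noncoding gene LOC105377654, so position does not tell between them.

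The peaks of LNX1, CHIC2 and KDR lay away from the listed starts and were small. The LNX1 peak, at 53620994 to 53621248, held 16 tags (9.15 to 26.0) with a fold of 9.97 and an FDR of 0.88%, 29673 bp before the listed start and inside the gene span of 53459301 to 53652477. The CHIC2 peak, at 54011221 to 54011411, held 10 tags (4.80 to 18.4) with a fold of 12.5 and an FDR of 5.57%. It lay 53274 bp after the listed start and 1542 bp inside the far end of the span, 54009789 to 54091879. The KDR peak, at 55117341 to 55117500, held 8 tags (3.45 to 15.8), the lowest number in the suspended list, with a fold of 14.9 and an FDR of 3.65%. It lay 8145 bp after the start of the gene, which spans 55078481 to 55125595. By fold these peaks ranked above those of PDGFRA, and by tags below every one of them.

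KIT, at 54657957 to 54740715, and GSX2, at 54100163 to 54102498, had no peak in either list. The nearest suspended summits lay 42331 bp after KIT, at the noncoding gene LOC105377657 (8 tags, 3.45 to 15.8), and 37608 bp after GSX2, outside any gene (19 tags, 11.4 to 29.7). The other peaks of the window assigned to none of the 8 genes held 15 tags (8.40 to 24.7) at 53800027 to 53800286, outside any gene, and 16 tags (9.15 to 26.0) at 53917055 to 53917290, at the noncoding gene LOC124900702. The peak before PDGFRA lay within 5 kb of the pseudogene RPL22P13. Those 5 peaks had an FDR of 0.80% to 4.96%.

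Genes that act with these receptors were counted by the same rule. Of 27 ligands, receptors and signal transducers, 7 had a suspended peak (25.9%, background 28.6%) and 2 an attached one (7.41%, background 1.86%). Among ligand genes, PDGFC, whose product binds the alpha receptor, had 11 suspended peaks with 375 tags in all and 1 attached peak of 77 tags (60.8 to 96.2). Only 1 protein-coding gene had more suspended peaks than PDGFC. These 11 peaks had folds of 3.40 to 10.1 and an FDR of 2.70% to 5.76%, and the attached one had an FDR of 100%. Their implied background was 2.47 to 8.04 times the genome-wide rate.

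The other ligand genes with a suspended peak were VEGFA (39 tags, 27.7 to 53.3) and PGF (14 tags, 7.65 to 23.5), which encode ligands of the vascular endothelial growth factor receptors. Among transducers, the adaptor gene GRB2 had 37 tags (26.1 to 51.0) in 530 bp in suspended cells, at an FDR of 2.58%. In attached cells it had 38 (26.9 to 52.2) in 499 bp, at an FDR of 53.5%. The intervals of these raw counts overlapped. CBL, a ubiquitin ligase that ends receptor signalling, had 2 suspended peaks of 19 and 22 tags, the phosphatase gene PTPN11 1 of 14 tags and the exchange factor gene SOS1 1 of 10 tags. No peak of either list was assigned to the ligand genes PDGFA, PDGFB, PDGFD, VEGFB, VEGFC, KITLG and CSF1. The receptor genes PDGFRB, CSF1R, FLT1, FLT3 and FLT4 also had none in either list.

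The genes around FGFR1 on 8p11, the other receptor locus examined in this cell line, were counted in the same way. DNA copies were not measured at this locus either, and their part in its peaks and background was not tested. At the PDGFRA locus 6 of 8 genes had a suspended peak and 0 an attached one, where 28.6% and 1.86% of all protein-coding genes did. At the FGFR1 locus 9 of 10 had a suspended peak and 2 of 10 an attached one. Those 2, NSD3 and LETM2, shared the attached peak (202 tags, 175.1 to 231.9), which had an FDR of 100%. Suspended peaks were shared too, such as that at 38268291 to 38269337, counted for NSD3, PLPP5 and DDHD2. The PDGFRA window had 7.55 suspended peaks per Mb (4.40 to 12.1), against 28.8 (18.6 to 42.5), or 25 peaks in 0.868 Mb, in the FGFR1 window. The intervals did not overlap, but they treat peaks as independent and are too narrow where peaks cluster. In the PDGFRA window 5 of the 17 peaks form the chain. The median implied background was 6.26 times the genome-wide rate at the 6 peaks of PDGFRA and 1.67 times at the 6 peaks of its neighbours. At the 18 gene-assigned peaks of the FGFR1 locus it was 6.75 times (range 3.70 to 11.5). These groups differed in width, with medians of 1258.5, 223 and 855.5 bp in that order. Against peaks within 10% of their own width, the medians were 1.26, 0.986 and 1.60 times. These sets include the peak itself and are small for the widest peaks. That of the 2725 bp peak of NSD3 and LETM2 held 1 peak, itself, which fixed its value at 1. Those of the 3267 bp FGFR1 and 3425 bp TACC1 peaks held 3 each. FGFR1 itself had 2 peaks, the larger with 330 tags (295.4 to 367.6) in 3267 bp. Relative to the genome-wide rate, the high background around PDGFRA lay at PDGFRA, the peak before it and, less so, the SCFD2 and FIP1L1 starts. Every one of the 18 peaks around FGFR1 was at least 3.70 times that rate. Against peaks of like width this order changed. The SCFD2 start then stood at 1.55 times the median, inside the PDGFRA range of 0.969 to 1.78, and the FIP1L1 start at 0.939. The peak before PDGFRA, at 1.52, and that at 53917055 to 53917290, at 1.58, also lay inside that range.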

How the data were processed

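With MACS 1.4.2 the authors called peaks per ChIP library, using the same condition's input as control, per the file headers, at a p cutoff of 1e-05 with local background windows of 1 and 10 kb. Per the file headers, 1 tag was kept per position and the larger library was scaled to the smaller. The build is hg38, per the submitters' processing notes, and no aligner is named in the labels or headers. The deposited tags per peak are raw counts. The authors' fold enrichment is a ratio to local background, their FDR is a percent, and their score is minus 10 times log10 of the p-value, since its column name was lost. Fold, score and FDR rank or filter peaks within a list here.

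Genes, spans and starts came from RefSeq tables for GRCh38.p14, which give no exons or UTRs. Peaks within a gene span or 5 kb were assigned with Python 3.11.15, pandas 2.3.3 and SciPy 1.17.1. The implied background and gene assignment were tested on simulated data and by direct count. Tags carry exact Poisson 95% intervals. Named were the 8 genes, other genes at their peaks, list members with a peak, and the nearest flanking coding genes with one. PDGFA, PDGFB, PDGFD, VEGFB, VEGFC, KITLG, CSF1, PDGFRB, CSF1R, FLT1, FLT3 and FLT4, without a peak, were added after the counts were seen, as were DCUN1D4, CEP135 and REST. Genes, lists and tests were chosen with earlier results of these data known. Gene ranks, the joining of summits and the comparisons with the highest-scoring and widest peaks were chosen after the values were seen.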

Additional observations from a re-analysis of the deposited data

How the results depend on the processing

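The count of 6 genes with a suspended peak was 6 with flanks of 0, 1 and 20 kb (backgrounds 20.3%, 24.97% and 38.5% of protein-coding genes) and when any base of a peak was counted (28.7%), 5 at an FDR of at most 5% (background 24.2%), and 3 for peaks at or above the median score (FIP1L1, LNX1 and PDGFRA; background 18.0%). The attached count was 0 in each of these settings, where the backgrounds were 0.105% to 2.74% of protein-coding genes. No peak was shared by overlap of 1 bp, overlap of 50% of the narrower peak or summits within 1 kb. The pathway count of 7 became 13 with flanks of 20 kb (48.1%, background 38.5%), with PDGFB, PDGFRB and VEGFB among the genes gained. Its attached count of 2 became 1 with a flank of 0 kb (background 1.12%) and at or above the median score (background 0.988%). At an FDR of at most 5% it became 0 (background 0.105%). The attached FGFR1 locus count of 2 became 0 in those 3 settings, with the same backgrounds. The median implied background of the 12 peaks was 2.61 times the list median, 1.16 times that of peaks of like width and 5.15 times the genome-wide rate, and for the 6 PDGFRA peaks it was 3.18, 1.26 and 6.26. GAGGAAGT was found in 0 and GAGGAA in 4 of 9 windows. The density without the PDGFRA start and the comparison with the genome-wide rate were added after seeing the data. No paired analysis was possible because each group has 1 library. Depth limits the small peaks most: 8 tags at KDR and inside SCFD2 have an interval of 3.45 to 15.8, and 16 tags at LNX1 one of 9.15 to 26.0.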

Other observations

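Within 2 Mb below SCFD2 in coordinate, 2 of 7 protein-coding genes had a suspended peak (28.6% of all protein-coding genes did), USP46, a deubiquitinase gene, and DCUN1D4. The USP46 peak, at chromosome 4, 52658630 to 52660071 (hg38), held 131 tags (Poisson 95% interval 109.5 to 155.5) in 1442 bp, 20 bp from the start of the gene, at an implied background of 6.62 times the genome-wide rate. It also lay within 5 kb of the noncoding USP46-DT. Its tags were within the range of the PDGFRA chain, but no other peak lay at the gene. Within 2 Mb above KDR, 8 of 21 had one, with the same background of 28.6%, the nearest being the circadian factor gene CLOCK, with 38 tags (26.9 to 52.2) in 582 bp, 339 bp from its start, at 2.43 times the genome-wide rate. For its width, the background at CLOCK was 0.706 times the median. Further on, CEP135 had 30 tags (20.2 to 42.8) and REST, a repressor of neuronal genes, 28 (18.6 to 40.5). No protein-coding gene of either flank had an attached peak, where 1.86% of all protein-coding genes did.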
